A study of Mus musculus with 6 samples.

Results

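The genes described here encode the enzymes that attach a polar group to drugs, toxins, steroids and bile pigments, or reduce them, in the kidney. They were selected by name and biotype: every protein-coding gene of the deposited table of kidney expression whose symbol places it among the UDP-glucuronosyltransferases (UGT), the glutathione S-transferases of the alpha, kappa, mu, omega, pi and theta classes (GST), the microsomal glutathione S-transferases (MGST), the sulfotransferases (SULT), the aldo-keto reductases (AKR) or the flavin-containing monooxygenases (FMO). This gave 58 of 17550 genes, made up of 15 UGT, 17 GST, 2 MGST, 6 SULT, 14 AKR and 4 FMO genes. The FMO enzymes add oxygen to nitrogen and sulfur atoms, so these 4 genes neither conjugate nor reduce and are described under their own name. The naming rule uses no expression value, but the families were picked with earlier results of these data known. Of the 91 protein-coding genes that carry such names in the GENCODE vM21 annotation, 57 were in the table by gene ID. The other 34, among them Gsta1, Ugt1a8 and Ugt1a9, were not analysed here.

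Bulk RNA sequencing was carried out on saline-perfused kidneys of 3 samples labelled Control and 3 labelled KC-Tie2. In the KC-Tie2 psoriasis model, a transgene makes the epidermal keratinocytes produce Tie2, a receptor tyrosine kinase, and the skin becomes inflamed. The labels used here give no strain, age, sex, litter or alleles for either genotype and do not say whether each sample is a separate animal, so p-values measure only the spread between these samples. The libraries were poly(A)-selected. The design sets the kidney of the psoriasis model beside that of controls.

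In conjugation, a transferase moves a polar group from an activated donor to the compound. UGT enzymes use a UDP-sugar, mostly UDP-glucuronic acid, SULT enzymes use the sulfate donor PAPS, and GST enzymes use the tripeptide glutathione. AKR enzymes reduce aldehydes and ketones, including sugars and steroids, with NADPH. In the kidney many of these enzymes, though not all, are found in the proximal tubule, beside the transporters that take up organic anions and cations from the blood. Glutathione conjugates made in the body are cut in the proximal tubule to cysteine conjugates and acetylated to mercapturates.

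Values are normalized counts, the unit of the deposited table, which summed over all genes to between 23647800 and 25495500 in each library. Tek, the mouse gene for Tie2, lay between 989 and 1081 in the Control and between 933 and 976 in the KC-Tie2 libraries (adjusted p = 0.361, limma). The transgene acts in keratinocytes, so kidney Tek does not check the genotype labels. The 4 Y-linked transcripts Ddx3y, Uty, Eif2s3y and Kdm5d were present in all 6 libraries, at 440 to 1049. Xist, the transcript of the inactive X chromosome, was at 98.4, 89.3 and 415 in Control replicates 1 to 3. In KC-Tie2 replicates 1 to 3 Xist was at 38.2, 25.6 and 241, so it was highest in replicate 3 of each group. The reason was not tested. None of these 5 genes was called, and Eif2s3y had the smallest adjusted p (0.112). The proximal tubule receptor gene Lrp2 was at 127971 to 168263, and the liver transcript Alb at 69.9 to 136. The 58 genes made up 0.659%, 0.629% and 0.656% of the summed counts in Control replicates 1 to 3 and 0.515%, 0.523% and 0.593% in KC-Tie2 replicates 1 to 3, so the groups did not overlap.

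Of the 58 genes, 5 fell and 2 rose in KC-Tie2 kidneys, and all 58 had the mean of 10 or more that the test required. "Rose", "fell" and "called" are used for an adjusted p under 0.05 from limma over all 17539 genes tested. The genes that fell were Ugt1a7c, Ugt1a6b, Fmo1, Fmo2 and Gstt2, and those that rose were Gstm5 and Mgst3. These 7 genes were 12.1% of the 58, beside 1.69% of all genes tested, with 8.62% of the 58 called lower beside a background of 0.838% and 3.45% called higher beside 0.855%. The 3 KC-Tie2 libraries lay wholly below the 3 Control libraries at 14 of the 58 genes and wholly above them at 7, together 36.2%. The groups did not overlap at 20% of all genes tested, 10% lower and 9.96% higher. An unadjusted p under 0.05 was reached by 24 of the 58 genes (41.4%), 17 lower and 7 higher, beside 15.3% of all genes tested, 7.77% lower and 7.57% higher. The median log2 fold change, KC-Tie2 minus Control, was -0.08 over the 58 genes and 0.00118 over all genes tested, with 33 of the 58 below 0. When Control replicates 1, 2 and 3 were left out in turn, 1, 6 and 0 of the 58 genes were called. When KC-Tie2 replicates were left out in the same order, the number was 2, 1 and 13, so the count rested on which libraries were included.

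**Figure D1:**
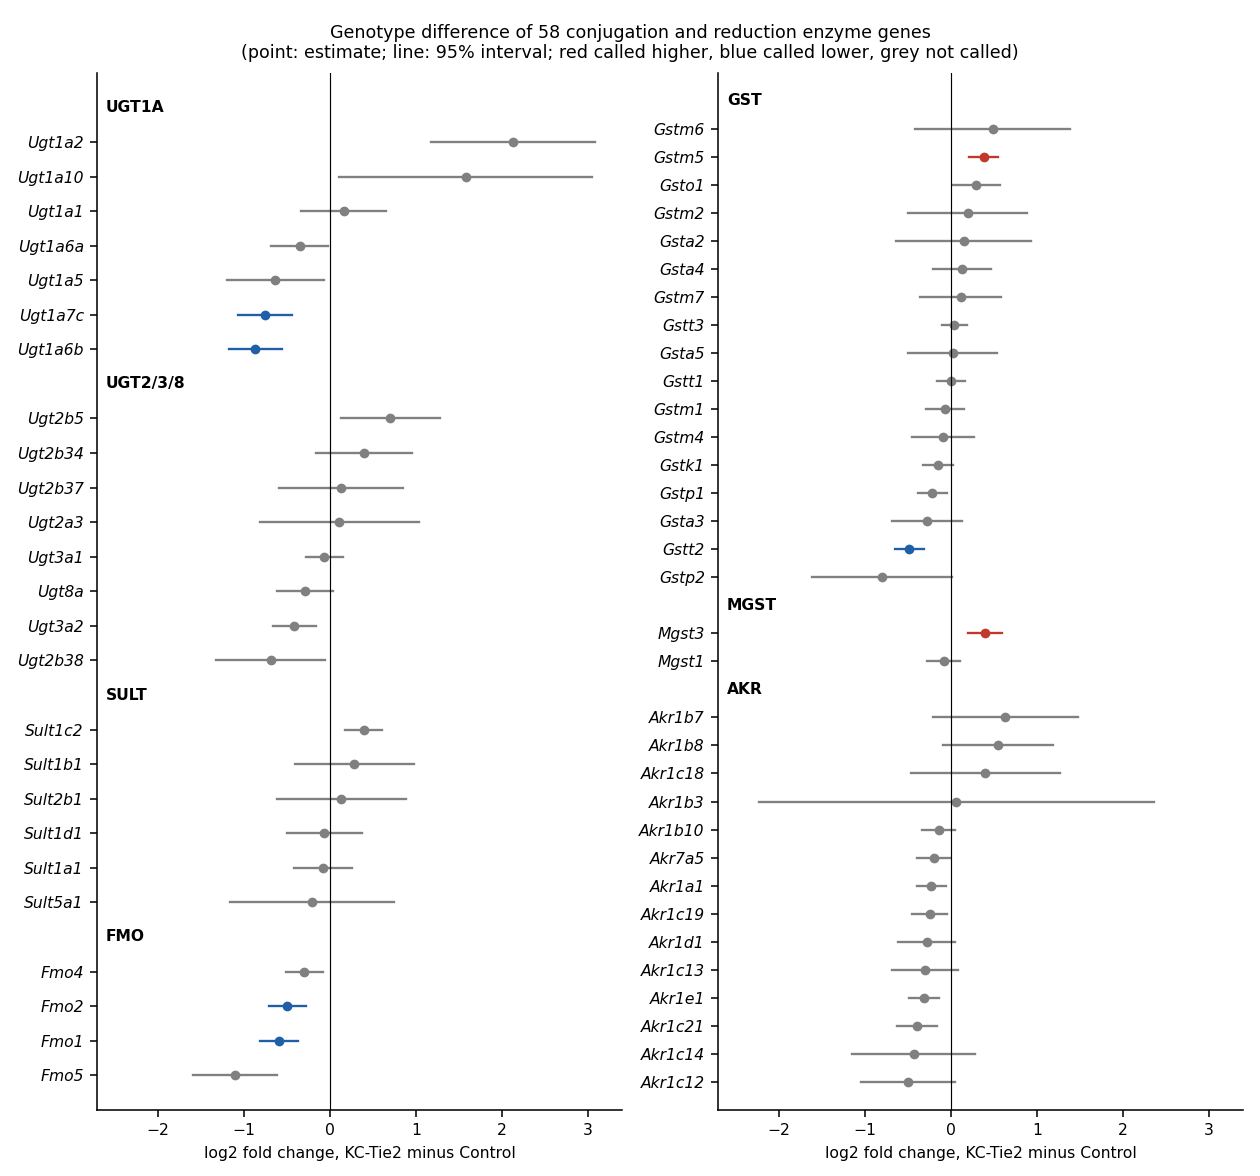
Log2 fold change (KC-Tie2 minus Control) of each of the 58 genes by family, with the 95% interval from limma. The 2 genes called higher and 5 called lower are coloured, and the estimates run from -1.10 at Fmo5 to 2.13 at Ugt1a2, neither of which was called.

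Libraries did not stand equally far apart. Among the KC-Tie2 libraries, the one closest to the average of the Controls was replicate 3 for 38 of the 58 genes and replicate 2 for 5. Control replicate 2 was the Control library nearest to the KC-Tie2 mean at 30 of the 58. Markers of the proximal tubule, none of them called, were read from lists by segment, and the segments were not compared by a test. All 4 genes of a list for the second segment, Slc22a6, Slc22a8, Slc22a30 and Slc34a1, were lower in every KC-Tie2 than in every Control library (median log2 fold change -0.37, summed level 130429 to 145286 in Control and 107547 to 118723 in KC-Tie2), and none was called (unadjusted p under 0.05 at 4). Most of that sum was Slc34a1 (103856 to 113719 and 87701 to 97004). The 5 third-segment markers, Atp11a, Slc22a13, Slc5a1, Slc7a13 and Slco1a1, had 3 members lower in every KC-Tie2 library (summed level 55182 to 75439 and 34953 to 49761, none called, unadjusted p under 0.05 at 3). The estimates of Slc22a13 and Slc5a1 were above 0. The 4 genes listed for the first segment had 2 estimates above 0, Gatm (0.41) and Slc5a12 (0.28), and 2 below, Slc22a7 (-0.48) and Slc5a2 (-0.05). Their median was 0.12 and none was called, with an unadjusted p under 0.05 at 3, 2 higher and 1 lower. Of these, Slc5a12 was higher and Slc22a7 lower in every KC-Tie2 library. The 5 markers of the whole proximal tubule had a median of -0.06 (summed level 237634 to 258624 and 207321 to 245834, none called). The part of this, and of the marker lists that follow, in the results below was not tested. In whole kidneys, fewer cells of a type and less RNA per cell cannot be told apart.

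Markers of later nephron segments and of podocytes, the filter cells of the glomerulus, were mostly above 0. The 5 collecting duct markers were all above 0, with 4 apart and none called (unadjusted p under 0.05 at 4, summed level 5478 to 8100 in Control and 9141 to 12176 in KC-Tie2). The 3 markers of the thick ascending limb summed to 88826 to 94425 and 94778 to 122757, with none called (unadjusted p under 0.05 at 1). Of the 3 distal tubule markers, Calb1, a calcium-binding protein gene, rose (limma adjusted p = 0.0106), and the list summed to 36177 to 42798 and 41614 to 48245. All 3 podocyte markers had an unadjusted p under 0.05 and were above 0, with none called (summed level 6814 to 7750 and 7595 to 10177).

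Markers of cells outside the nephron were also summed over each list. The macrophage markers, 7 of 7 tested with 3 called higher, lay between 1808 and 2378 in Control and between 2451 and 2980 in KC-Tie2 libraries, and 3 neutrophil markers, all called higher, between 8.4 and 17.3 and between 58.1 and 145. All 7 macrophage estimates were above 0, and the called genes were C1qa, C1qb and C1qc. Csf1r, with the most counts of that list, had a log2 fold change of 0.06 (limma adjusted p = 0.884), and Adgre1, Cd68 and Lyz2 were not called. Of 6 listed lymphocyte and plasma cell genes, Cd3e, Cd79a and Ms4a1 were not among the genes tested. The other 3, the plasma cell genes Jchain, Igha and Igkc, were all called lower and summed to 367 to 662 and 213 to 224. Stromal markers (2686 to 4277 and 3346 to 4413) and endothelial markers (5662 to 5876 and 5532 to 5962) overlapped between the groups. Fat markers were high in Control replicate 1 (1017) and KC-Tie2 replicate 1 (582) and at most 90.0 in each other library. Apoa1 and Cps1 of the hepatocyte list were not among the genes tested. Hemoglobin genes overlapped widely (1422 to 2155 and 919 to 4956, none called, unadjusted p under 0.05 at 0), as did 2 keratinocyte keratin genes (85.2 to 212 and 92.5 to 129) and the adrenal gene Star (129 to 155 and 146 to 163). The 4 hepatocyte genes that were tested summed to 17596 to 28341 in Control and 15763 to 18581 in KC-Tie2 libraries, mostly as Cyp2e1, which the kidney also expresses. None of the 4 was called, and all 4 had an unadjusted p under 0.05. Alb and Ttr were lower and Serpina1a was higher in every KC-Tie2 library.

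The UGT1A genes share 1 locus on chromosome 1. Each gene has a first exon and a promoter of its own, and all first exons are spliced to the same set of downstream exons, so each enzyme has its own substrate-binding part and a common part that binds the UDP-sugar. Of the 7 measured genes 2 fell, none rose and 4 had groups that did not overlap, with directions that differed between neighbours. Ugt1a7c (ENSMUSG00000090124, chromosome 1, 88022784 to 88147724, mm39), to which most counts of the locus were assigned, was at 8739, 8022 and 8470 in Control replicates 1 to 3 and at 4711, 4185 and 6340 in KC-Tie2 replicates 1 to 3. Every KC-Tie2 library was below every Control library, a 1.68-fold fall (log2 fold change -0.75 ± 0.14 SE, limma adjusted p = 0.0409). Ugt1a6b, whose product glucuronidates small phenols (chromosome 1, 88030974 to 88146725), was at 357, 444 and 440 in Control and at 237, 186 and 259 in KC-Tie2 libraries. It fell 1.82-fold without overlap (log2 fold change -0.87 ± 0.14, limma adjusted p = 0.0146). The call of Ugt1a7c was lost without Control replicate 1, 2 or 3 or KC-Tie2 replicate 1 or 2 (adjusted p up to 0.183), and that of Ugt1a6b without Control replicate 3 or KC-Tie2 replicate 2 (up to 0.0833).

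Ugt1a2 (ENSMUSG00000090171, chromosome 1, 88128323 to 88146719) went the other way. In Control replicates 1 to 3 it was at 340, 269 and 263, and in KC-Tie2 replicates 1 to 3 at 1157, 2077 and 854. The groups were far apart and the KC-Tie2 libraries differed widely among themselves, so that a 4.39-fold difference (log2 fold change 2.13 ± 0.36, 95% interval 1.18 to 3.09) did not pass the threshold (limma adjusted p = 0.0852). It passed without KC-Tie2 replicate 2, without KC-Tie2 replicate 3 and with a variance prior that does not allow for outlying genes, where the lowest adjusted p was 0.00162. In the authors' deposited table the Ugt1a2 ratio of KC-Tie2 to WT is 4.69 with a step-up FDR of 8.2e-06. Ugt1a10 (chromosome 1, 87983110 to 88146726) was at 153, 298 and 76.1 in Control and at 573, 454 and 363 in KC-Tie2 libraries, also without overlap (log2 fold change 1.58 ± 0.56, limma adjusted p = 0.299).

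The remaining UGT1A genes were not called. Ugt1a1, the enzyme that conjugates bilirubin, was at 91.0 to 180 in Control and 132 to 167 in KC-Tie2 libraries, with a log2 fold change of 0.16 (95% interval -0.34 to 0.66). Ugt1a5 was at 180 to 306 and 118 to 206 (limma adjusted p = 0.271), and Ugt1a6a at 625 to 864 and 515 to 706 (limma adjusted p = 0.299), both with overlapping groups. Summed over the 7 genes, the locus was at 10523, 10222 and 10515 in Control and at 7463, 7752 and 8861 in KC-Tie2 libraries. Within that sum Ugt1a7c took 78.5% to 83.0% of the Control and 54.0% to 71.5% of the KC-Tie2 counts, and Ugt1a2 took 2.5% to 3.23% and 9.64% to 26.8%.

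The split of counts among the UGT1A genes is uncertain. In the vM21 annotation 50.3% to 60.6% of the exon bases of these 7 genes belong also to another UGT1A gene, and 52.1% to 79.8% of the 50-base stretches of their transcripts occur in another gene. The share was largest at Ugt1a6b, whose closest copy is Ugt1a6a. Ugt1a9, which shares the most stretches with Ugt1a10, was not in the deposited values. Ugt1a7c ends at 88147724 and the other UGT1A genes at 88146719 to 88146726. Reads from bases past the other ends could count only for Ugt1a7c among these genes, whichever first exon they came from. Reads in the shared exons can be assigned to a gene only by a rule of the counting program, and the sources used here do not give it.

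Estimates of neighbouring UGT1A genes differed in direction, though none of those with a higher estimate in KC-Tie2 was called. The 250 bases before the RefSeq start of 4 UGT1A genes (GRCm38.p6, plus strand) are shown in their order along the chromosome. The called gene Ugt1a6b had no RefSeq start under its symbol and is not shown. The windows are chr1:88055161-88055410 for Ugt1a10, chr1:88094751-88095000 for Ugt1a7c, chr1:88134559-88134808 for Ugt1a6a and chr1:88200361-88200610 for Ugt1a2. Capitals mark matches, on either strand, to 4 short motifs chosen with the values known: the antioxidant response element core TGACNNNGC, the STAT spacing TTCNNNGAA, the AHR core GCGTG and the TATA box core TATAAA. The bases that follow the RefSeq start were found in a vM21 transcript of the gene for 3 of the 4 but not for Ugt1a7c, so its window may not be the promoter of the annotated transcripts. The searched motifs do not overlap one another in these windows.
Ugt1a10: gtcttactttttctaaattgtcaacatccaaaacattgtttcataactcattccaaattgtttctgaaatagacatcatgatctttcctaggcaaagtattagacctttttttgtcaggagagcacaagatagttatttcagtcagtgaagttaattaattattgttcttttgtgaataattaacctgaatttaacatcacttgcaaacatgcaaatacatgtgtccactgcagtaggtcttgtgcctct
Ugt1a7c: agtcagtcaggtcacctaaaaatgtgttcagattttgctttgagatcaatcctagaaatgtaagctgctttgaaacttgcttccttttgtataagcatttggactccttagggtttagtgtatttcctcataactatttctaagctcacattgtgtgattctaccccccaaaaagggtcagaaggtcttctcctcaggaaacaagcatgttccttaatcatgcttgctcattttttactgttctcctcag
Ugt1a6a: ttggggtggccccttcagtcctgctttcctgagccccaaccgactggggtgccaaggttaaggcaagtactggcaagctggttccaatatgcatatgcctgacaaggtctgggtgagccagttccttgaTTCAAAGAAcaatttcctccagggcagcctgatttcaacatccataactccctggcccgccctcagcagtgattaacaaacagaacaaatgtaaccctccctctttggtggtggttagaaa
Ugt1a2: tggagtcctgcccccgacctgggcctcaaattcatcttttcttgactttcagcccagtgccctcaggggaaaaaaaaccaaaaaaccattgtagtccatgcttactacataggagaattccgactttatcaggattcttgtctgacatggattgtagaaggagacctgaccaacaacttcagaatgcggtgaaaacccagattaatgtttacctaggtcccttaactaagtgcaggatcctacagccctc
The Ugt1a6a window holds 1 STAT spacing, at -121 to -113 from the start. None of the 4 motifs is present in the windows of Ugt1a10, Ugt1a7c and Ugt1a2. Among the other called genes, Gstm5 had 1 antioxidant core and 2 AHR cores in its window. Mgst3 had 1 AHR core, and the Fmo2 windows had no match. Fmo1 and Gstt2 had no RefSeq start under their symbols. A RefSeq start matched 51 of the 58 genes, with 61 windows in all. The antioxidant core was in 4 of these 61 windows (6.56%) and in 10.2% of 32851 windows of all genes, the STAT spacing in 3 (4.92%) and 7.02%, the AHR core in 12 (19.7%) and 28.2%, and the TATA core in 6 (9.84%) and 12.4%. A match is a description of the letters and not a binding site.

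**Figure D2:**
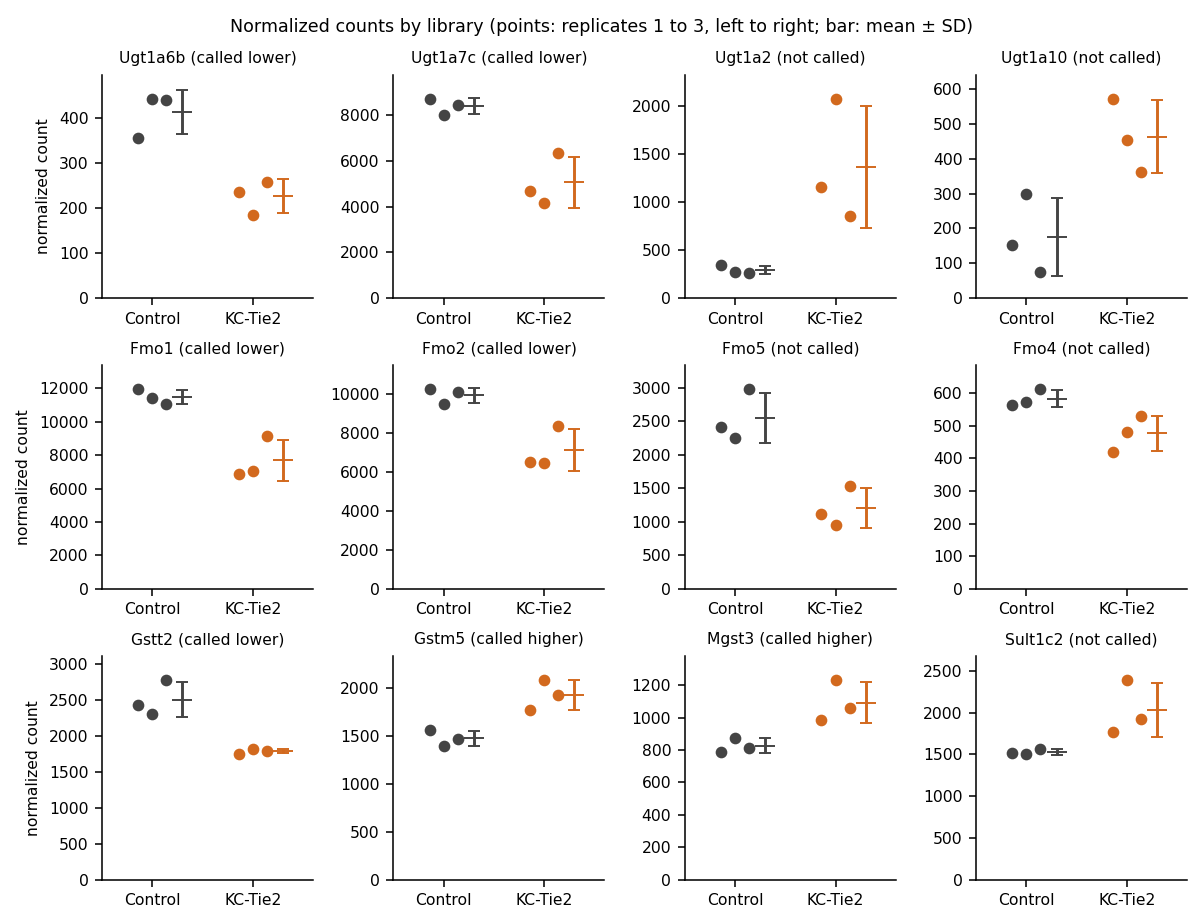
Normalized count in each library (points, replicates 1 to 3 from left to right) with the mean and SD for 12 genes, on axes that start at 0. Groups do not overlap at any of the 12, and of the KC-Tie2 points that of replicate 3 lies nearest to the Control points at the 4 UGT1A and the 4 FMO genes.

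No gene of the other UGT families was called, with an unadjusted p under 0.05 at 3 of 8. UGT2 enzymes glucuronidate steroids and bile acids, UGT3 enzymes use sugars other than glucuronic acid, and Ugt8a transfers galactose to ceramide for myelin lipids. Ugt3a2, the UGT gene with the most counts per kilobase of exon, was at 24944, 20932 and 25877 in Control and at 15838, 17431 and 20824 in KC-Tie2 libraries. The groups were apart by a narrow margin, between Control replicate 2 and KC-Tie2 replicate 3 (log2 fold change -0.41 ± 0.11, limma adjusted p = 0.104). Ugt2b38 was at 11154, 8092 and 12281 and at 5410, 5636 and 8696, with overlapping groups (log2 fold change -0.69 ± 0.25, limma adjusted p = 0.294). Ugt2b5 was at 26.7, 42.3 and 30.9 and at 44.6, 61.2 and 57.5, higher in every KC-Tie2 library (limma adjusted p = 0.22), and 41.7% of its 50-base stretches are shared, mostly with Ugt2b38. Ugt3a1, next to Ugt3a2 on chromosome 15, had a log2 fold change of -0.06 with a 95% interval of -0.28 to 0.16. Ugt2a3, Ugt2b34, Ugt2b37 and Ugt8a lay between -0.28 and 0.40.

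All 4 FMO genes were lower in every KC-Tie2 library than in every Control library, and 2 of them fell. Fmo1 (ENSMUSG00000040181, chromosome 1, 162657130 to 162694179), the main drug-oxygenating FMO of mouse kidney, was at 11943, 11426 and 11068 in Control and at 6871, 7077 and 9127 in KC-Tie2 libraries. It fell 1.5-fold (log2 fold change -0.59 ± 0.10, limma adjusted p = 0.0203). Its neighbour Fmo2 (chromosome 1, 162701886 to 162726295), which prefers compounds with a slim side chain, was at 10241, 9508 and 10087 and at 6531, 6453 and 8351. It fell 1.41-fold (log2 fold change -0.49 ± 0.10, limma adjusted p = 0.0321). Both calls were lost without Control replicate 1 or 3 or KC-Tie2 replicate 1 or 2 (adjusted p up to 0.114 for Fmo1 and 0.167 for Fmo2).

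Fmo5, which inserts oxygen beside ketones rather than at nitrogen or sulfur (chromosome 3, 97536120 to 97562598), had the lowest estimate of all 58 genes. It was at 2413, 2256 and 2975 in Control and at 1114, 954 and 1532 in KC-Tie2 libraries, a 2.15-fold difference (log2 fold change -1.10 ± 0.20, 95% interval -1.59 to -0.62). It did not pass the threshold (limma adjusted p = 0.0688), and passed it under 4 of the 14 alternatives, among them the fit without KC-Tie2 replicate 3. In the authors' deposited table the Fmo5 ratio is 0.471 with a step-up FDR of 4.23e-10. Fmo4, on chromosome 1 beside Fmo1, was at 564, 573 and 612 and at 420, 481 and 529 (log2 fold change -0.30 ± 0.10, limma adjusted p = 0.168). At most 4.85% of the 50-base stretches of an FMO gene occur in another gene. Summed, the family was at 23762 to 25162 in Control and at 14935, 14965 and 19540 in KC-Tie2 replicates 1 to 3.

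Of the 17 GST genes 1 rose and 1 fell, and the median log2 fold change was 0.02. Gstt2, a theta-class transferase (ENSMUSG00000033318, chromosome 10, 75666948 to 75673258), was at 2426, 2310 and 2779 in Control and at 1754, 1819 and 1795 in KC-Tie2 libraries. It fell 1.40-fold, and the KC-Tie2 libraries differed little among themselves (log2 fold change -0.48 ± 0.08, limma adjusted p = 0.013, the smallest of the 58 genes). Its neighbours on chromosome 10 had estimates close to 0. Gstt1 had a log2 fold change of 0.00289 (95% interval -0.16 to 0.17) and Gstt3 of 0.04 (-0.10 to 0.18), and the interval of Gstt2 was -0.65 to -0.31. The difference between these genes was not tested. The call of Gstt2 was lost without Control replicate 1 or 3 or KC-Tie2 replicate 1 or 2, with adjusted p no higher than 0.067.

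Gstm5, a mu-class transferase (ENSMUSG00000004032, chromosome 3, 107803137 to 107806002), was at 1561, 1399 and 1468 in Control and at 1772, 2086 and 1931 in KC-Tie2 libraries. It rose 1.31-fold (log2 fold change 0.38 ± 0.08, limma adjusted p = 0.0321), and lost its call without any single Control library and without KC-Tie2 replicate 2 (adjusted p up to 0.173). No 50-base stretch of Gstm5 occurs in another gene. Gstm1, the mu gene with the most counts, was at 6966, 9172 and 7295 and at 7692, 6865 and 7665, with overlapping groups and a 95% interval of -0.29 to 0.16. Gstm2, Gstm4, Gstm6 and Gstm7 had log2 fold changes between -0.09 and 0.49 and none was called.

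The 4 alpha genes, which act on lipid peroxidation products, had log2 fold changes between -0.27 and 0.15 and overlapping groups. Gsta2 was at 1838, 2475 and 1211 in Control and at 1660, 2132 and 2122 in KC-Tie2 libraries, and 49.8% of its 50-base stretches are shared, mostly with Gsta1. Gstp1, the main pi-class gene, was at 1797, 1838 and 1741 and at 1472, 1457 and 1725, lower in every KC-Tie2 library (limma adjusted p = 0.208), and 33.7% of its stretches are shared, mostly with Gstp2. Gstp2 itself was at 23.8 to 37.0 and 11.8 to 25.2. Gsto1, which reduces dehydroascorbate and methylated arsenic, was at 514, 527 and 387 and at 565, 642 and 537 (limma adjusted p = 0.275), higher in every KC-Tie2 library. Gstk1, found in mitochondria and peroxisomes, was at 629 to 678 and 568 to 617, lower in every KC-Tie2 library (limma adjusted p = 0.404).

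Of the 2 membrane-bound transferases, Mgst3, which conjugates leukotriene A4 and reduces lipid hydroperoxides (ENSMUSG00000026688, chromosome 1, 167199535 to 167221410), was at 790, 878 and 810 in Control and at 987, 1233 and 1062 in KC-Tie2 libraries. It rose 1.32-fold (log2 fold change 0.40 ± 0.09, limma adjusted p = 0.0479). That p lies close to the threshold, and the call was kept in 1 of the 6 fits that leave out a library, the one without Control replicate 2, with adjusted p up to 0.229 in the others. It was also lost with a minimum mean of 100 and with a variance prior that does not allow for outlying genes. Mgst1 was at 568 to 685 and 574 to 611 (95% interval of the log2 fold change -0.27 to 0.11).

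None of the 6 SULT genes was called, with an unadjusted p under 0.05 at 1. That gene was Sult1c2 (chromosome 17, 54136665 to 54153367), at 1518, 1507 and 1568 in Control and at 1773, 2392 and 1922 in KC-Tie2 libraries, higher in every KC-Tie2 library (log2 fold change 0.39 ± 0.10, limma adjusted p = 0.0771). In the authors' deposited table the Sult1c2 ratio is 1.33 with a step-up FDR of 0.0125. Sult1d1, which sulfates catecholamines and was the SULT gene with the most counts, was at 8281, 6016 and 7141 and at 5435, 6946 and 8298, with each group spanning much of the other. Sult1b1, an enzyme of thyroid hormone sulfation, was at 51.5, 80.9 and 67.6 and at 77.7, 51.7 and 128. Sult1a1, the phenol sulfotransferase, Sult2b1, which acts on cholesterol, and Sult5a1 had log2 fold changes between -0.20 and 0.13.

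No AKR gene was called. Of the 14, 10 were below 0 (median log2 fold change -0.24), and 4 were lower in every KC-Tie2 library, with an unadjusted p under 0.05 at 5. Akr1a1, the aldehyde reductase that makes the gulonate from which mice build vitamin C, was at 23649, 21589 and 23368 in Control and at 18824, 19531 and 20320 in KC-Tie2 libraries (log2 fold change -0.23 ± 0.08, limma adjusted p = 0.172). Akr1c21, a hydroxysteroid dehydrogenase that was first of the 58 genes in counts per kilobase of exon, was at 15853, 14110 and 15610 and at 9990, 11354 and 13687 (log2 fold change -0.39 ± 0.11, limma adjusted p = 0.105). Akr1e1 was at 1150, 1080 and 1123 and at 825, 886 and 995 (log2 fold change -0.31 ± 0.08, limma adjusted p = 0.0818). These 3 genes and Akr1c12 (41.0 to 54.6 and 28.9 to 40.2) were the 4 whose groups did not overlap.

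Within the AKR1C steroid dehydrogenases on chromosome 13, 5 of 6 estimates were below 0, at Akr1c12, Akr1c13, Akr1c14, Akr1c19 and Akr1c21, and Akr1c18, which inactivates progesterone, had a log2 fold change of 0.40 (95% interval -0.47 to 1.27). Akr1c12 and Akr1c13 share 28.6% and 24.2% of their 50-base stretches, mostly with each other. Akr1d1, the steroid reductase of bile acid synthesis, was at 587 to 727 and 419 to 621, and Akr7a5, which reduces dialdehydes, at 3346 to 4123 and 2937 to 3409. Of the 4 AKR1B genes 3 were above 0 (median log2 fold change 0.31), with no p under 0.05 before adjustment. Akr1b3, the aldose reductase that turns glucose into the osmolyte sorbitol, was at 1090, 1601 and 708 in Control and at 2520, 390 and 1436 in KC-Tie2 libraries. Its highest and lowest values were both in KC-Tie2 libraries, and its interval ran from -2.23 to 2.36, so no genotype difference could be resolved. Akr1b7, Akr1b8 and Akr1b10 had log2 fold changes between -0.14 and 0.64.

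**Figure D3:**
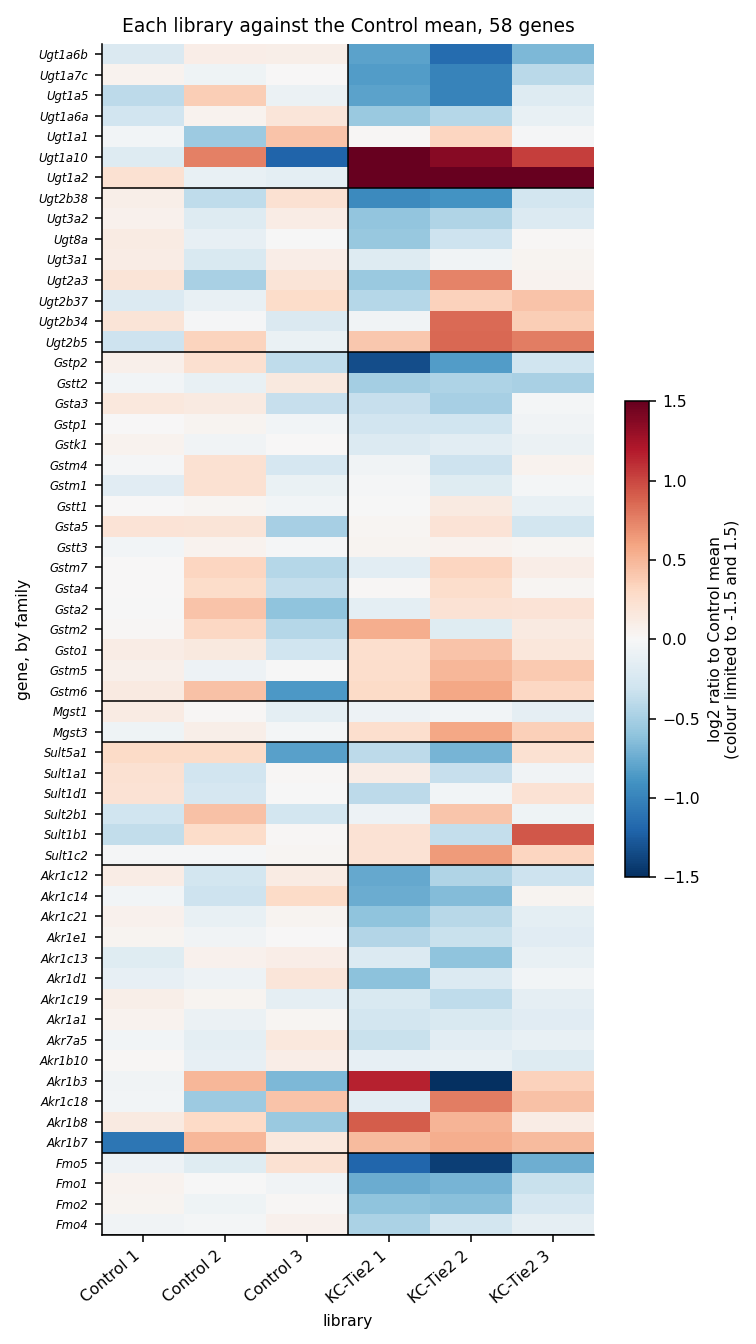
Log2 ratio of each library to the Control mean for the 58 genes, grouped by family (rows; from top UGT1A, other UGT, GST, MGST, SULT, AKR, FMO) and by library (columns). KC-Tie2 replicates 1 and 2 are blue over most FMO and AKR1C genes and KC-Tie2 replicate 3 is paler, while Akr1b3 is red in KC-Tie2 replicate 1 and blue in KC-Tie2 replicate 2.

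Levels were compared per kilobase of exon, with exon lengths from GENCODE vM21. Ranked by the mean over the 6 libraries, the first 12 genes were Akr1c21, Akr1a1, Ugt3a2, Gstm1, Ugt2b38, Sult1d1, Ugt3a1, Akr7a5, Gsta2, Ugt1a7c, Fmo1 and Fmo2, at 1521 to 8944 normalized counts per kilobase. Of these 12, 11 had a log2 fold change below 0 and 3 were called lower, with a median of -0.31. The limit of 12 was set after the values were seen. Between the 29 genes with the higher and the 29 with the lower levels the medians were alike (-0.0811 and -0.0821), with 18 and 15 genes below 0. The genes with the highest estimates, Ugt1a2 and Ugt1a10, were at 374 and 141 per kilobase.

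**Figure D4:**
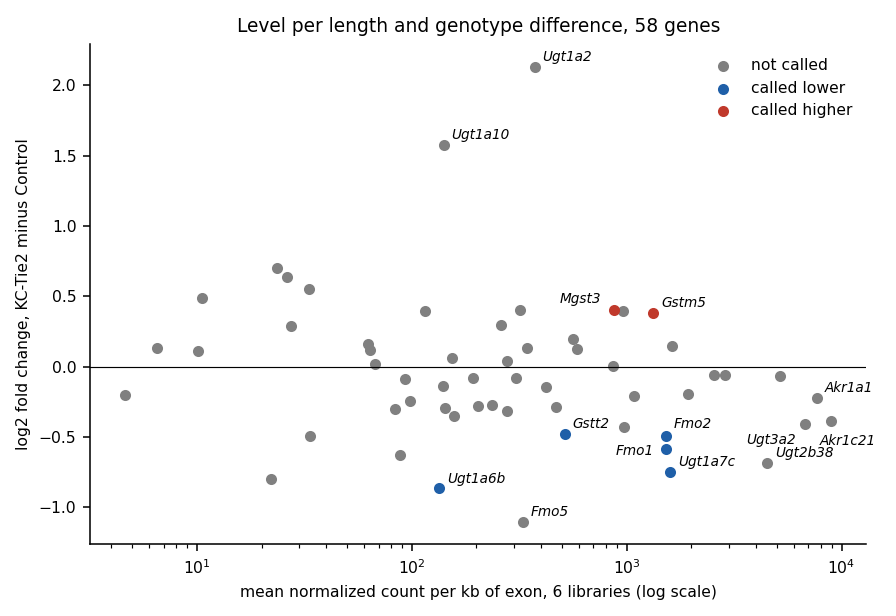
Log2 fold change (vertical) against the mean normalized count per kilobase of exon on a log scale (horizontal) for the 58 genes, coloured by call. The 12 genes with the highest levels lie below 0 except Gsta2 (0.15), and Ugt1a2 stands alone above 2.

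The authors' deposited table, which rests on another model of the same samples, gave a step-up FDR under 0.05 to 12 of the 58 genes, 4 with a ratio above 1 and 8 below 1, beside 3.91% of all its genes. All 7 genes called by limma were among them, and the others were Akr1c21, Fmo5, Sult1c2, Ugt1a2 and Ugt3a2.

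Partner genes of these pathways were read from 7 lists that hold the donors, the later steps and the regulators. Of 75 partner genes tested, 8 fell and 2 rose (13.3%, beside 1.69% of all genes), with a median log2 fold change of -0.11. Leaving out Control replicate 2 gave 12 fallen and 2 risen genes, leaving out KC-Tie2 replicate 3 gave 9 and 1, and leaving out any other library gave 0.

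The list for nucleotide sugar and sulfate donors held no called gene. Of its 9 genes tested, 3 had an unadjusted p under 0.05. Those that make a UDP-sugar were Ugdh, for UDP-glucuronic acid (log2 fold change -0.26 ± 0.09, limma adjusted p = 0.172), and Ugp2, for UDP-glucose (-0.28 ± 0.10, 0.201). The remaining gene was Bpnt2 (-0.22 ± 0.08, 0.199). Among 7 genes of glutathione synthesis and recycling all estimates were below 0 and 1 fell: Ggct, which breaks down gamma-glutamyl peptides, at 598, 564 and 629 in Control and 421, 433 and 465 in KC-Tie2 libraries (log2 fold change -0.44 ± 0.09, limma adjusted p = 0.03). The rate-limiting subunit Gclc had a log2 fold change of -0.11 ± 0.24, and Gclm, its modifier, of -0.27 ± 0.10 (limma adjusted p = 0.241).

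The steps that follow the glutathione transferases had the lowest list median, -0.36 over 15 genes, with 2 fallen and none risen. Estimates ran from -1.62 to 0.37, with 5 above 0. An unadjusted p under 0.05 was reached at 9 of the genes, 7 lower and 2 higher. Ggt1, which removes the glutamate of a glutathione conjugate at the brush border, was at 17620, 16713 and 21134 in Control and at 12072, 13368 and 14706 in KC-Tie2 libraries (log2 fold change -0.46 ± 0.10, limma adjusted p = 0.0473). Nat8f2, of the family of cysteine conjugate acetyltransferases, fell from 1228 to 1611 in Control to 952 to 998 in KC-Tie2 libraries (limma adjusted p = 0.0452). Acy3, which takes the acetyl group off mercapturates again, was at 23214, 21523 and 29975 and at 11983, 12388 and 17164, apart but not called (limma adjusted p = 0.0684).

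Of 9 other conjugating enzymes 3 fell. Inmt, an indolethylamine methyltransferase, was at 11688, 9126 and 12574 in Control and at 4528, 5079 and 6440 in KC-Tie2 libraries, a 2.08-fold fall (log2 fold change -1.06 ± 0.16, limma adjusted p = 0.0279). Glyat, which joins glycine to benzoate and other acyl groups, was at 9918, 8203 and 9618 and at 5912, 5928 and 7523, a 1.44-fold fall (limma adjusted p = 0.04). Gstz1, a zeta-class transferase of tyrosine breakdown, was at 4975, 4392 and 5013 and at 3390, 3432 and 3919, a 1.34-fold fall (limma adjusted p = 0.0284). Groups were apart at all 3 genes. Of 14 other reductases and hydrolases, Dhrs4, a carbonyl reductase, fell 1.33-fold from 2697, 2515 and 2706 to 1853, 1984 and 2100 (limma adjusted p = 0.0164). The epoxide hydrolase gene Ephx2 fell 1.6-fold from 6065, 5754 and 6628 to 3309, 3587 and 4778 (limma adjusted p = 0.0435). The carbonyl reductase Cbr1 rose from 571 to 774 in Control to 946 to 1129 in KC-Tie2 libraries (limma adjusted p = 0.0465), while the quinone reductase Nqo1 had a log2 fold change of -0.19 ± 0.08 (limma adjusted p = 0.253). Of 4 enzymes that remove conjugates Arsa, a lysosomal sulfatase, rose 1.43-fold from 251, 276 and 257 to 375, 411 and 340 (limma adjusted p = 0.0394). Gusb, which splits glucuronides, had a log2 fold change of -0.26 ± 0.15 (limma adjusted p = 0.441).

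None of 17 regulators was called, with an unadjusted p under 0.05 at 3, among them the estrogen receptor gene Esr1 (log2 fold change -0.19 ± 0.08, limma adjusted p = 0.277). Hnf4a, a transcription factor of the proximal tubule and liver, was at 20069, 21324 and 19905 in Control and at 16364, 18247 and 18755 in KC-Tie2 libraries, lower in every KC-Tie2 library (log2 fold change -0.20 ± 0.08, limma adjusted p = 0.245). Nfe2l2, which encodes the antioxidant regulator NRF2, had a log2 fold change of -0.07 ± 0.06, the aryl hydrocarbon receptor gene Ahr of 0.17 ± 0.14, and the pregnane X receptor gene Nr1i2 of 0.39 ± 0.19.

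**Figure D5:**
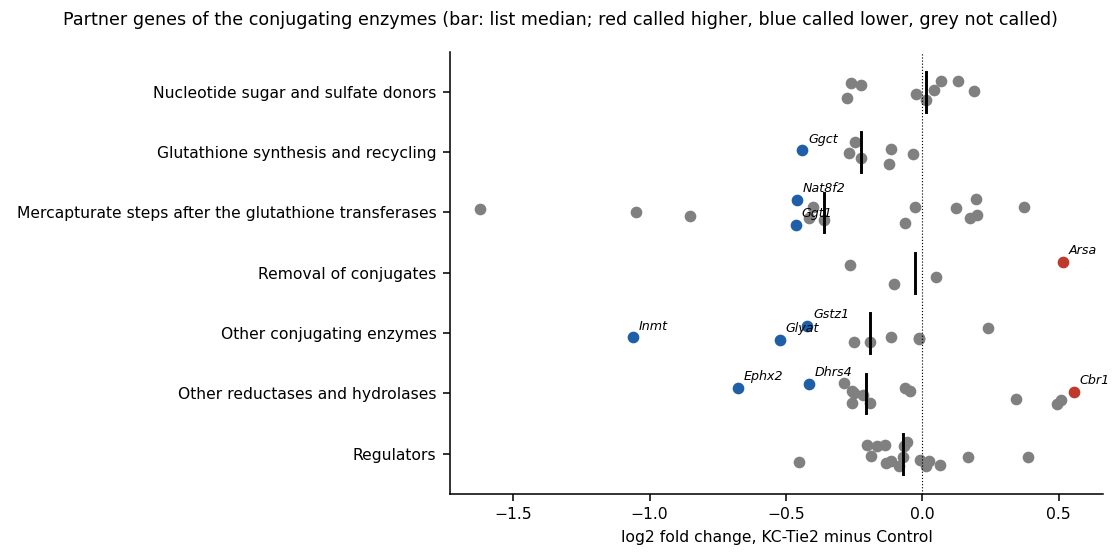
Log2 fold change (KC-Tie2 minus Control) of each of the 75 partner genes in 7 lists, with the list median as a bar. The 8 genes called lower lie in 4 lists and the 2 called higher are Arsa and Cbr1.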

How the data were processed

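Poly(A)-selected RNA of 6 kidney samples, 3 per genotype, was grouped by the labelled genotype, with each column tied to a sample through its library name. The deposited expression values are a signal, normalized counts per gene, and fractions of a read occur, so whole reads were not recovered. The submitters' processing notes name Partek 12.5.0, STAR, DESeq2 and the build mm39 without roles, and no source used here gives the strand setting or the handling of shared reads. The highest library value of every gene was at least 24.8, so the deposited table lacks low genes. The authors' second deposited table gives, per the file headers, a p-value with its step-up FDR, a ratio of KC-Tie2 to WT and a signed fold change (a score), copied without retesting.

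Genes averaging 10 or more (17539) were tested on log2(value + 1), which understates changes of low genes, using limma 3.58.1 (R 4.3.3). The model had 4 residual degrees of freedom, a robust, trended prior, two-sided p-values and Benjamini-Hochberg adjustment over all genes tested. Intervals are 95%, and ± gives SE. On simulated data for this comparison, 59% of 2-fold and 82% of 4-fold changes (200 changed genes of 17539) were recovered. Members, lists and motifs were chosen with earlier results of these data known. Full values are given for called members and, per family, for the gene with the highest mean and the 2 with the smallest p (17 genes). In each partner list the called genes and the 2 with the smallest p are named. All other named genes, such as Fmo5, Ugt1a2, Ugt1a10, Ugt2b38, Akr1b3 and Acy3, were chosen after their values were seen. Exon lengths and shared 50-base stretches come from GENCODE vM21 (GRCm38), matched by gene ID for all 58 members, and promoters from RefSeq. The alternatives changed the pseudocount (0.5, 5), the minimum mean (none, 100), the scaling (TMM), the variance prior or the weights, added the replicate number, or left out 1 library.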

Additional observations from a re-analysis of the deposited data

How the results depend on the processing

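Pseudocounts of 0.5 and 5, no filter and TMM scaling left the members called at 2 higher and 5 lower. A mean of at least 100 gave 1 higher. The labels do not say whether the replicate numbers pair the samples. Correlations of same-numbered deviations from the group means were 0.18, -0.096 and 0.017. Those of differently numbered samples ran from -0.28 to 0.26. These values neither show nor exclude a pairing. With the replicate block 9 members were called lower (3 higher), and 259 genes higher and 322 lower of all tested; with library weights it was 9 members lower, and 263 and 286 genes. Leaving out 1 library gave 0 to 2 members higher and 0 to 11 lower, and 25 to 311 genes higher and 18 to 371 lower, against 150 and 147 with all 6. Over 27 genes and up to 14 alternatives each, 30 of 376 comparisons lost a call, 19 gained one and 8 changed sign, none at a called gene. Signs changed for Akr1b3 with library weights (-0.19) and without Control replicate 3 (-0.24), KC-Tie2 replicate 1 (-0.52) or KC-Tie2 replicate 3 (-0.11), for Gstm1 without Control replicate 2 (0.053), for Sult1b1 without KC-Tie2 replicate 3 (-0.048) and for Sult1d1 without Control replicate 1 (0.05) or KC-Tie2 replicate 1 (0.10). Over the fits that left out 1 library these genes ranged from -0.52 to 0.83 (Akr1b3), -0.15 to 0.053 (Gstm1), -0.048 to 0.60 (Sult1b1) and -0.21 to 0.10 (Sult1d1). The cause was not tested. Ugt2b5 and Sult1b1 could not be tested at a mean of at least 100.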
